A study of Homo sapiens with 6 samples.

Results

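The genes encoding the 3 nuclear RNA polymerases and the factors that start transcription by polymerases I and III were examined in 22Rv1 cells after knockdown of MED12. 22Rv1 is a human prostate cancer cell line, and MED12 belongs to the kinase module of Mediator, the complex that links transcription factors to RNA polymerase II (Pol II). The members were the 47 listed genes with a row in the deposited log2 CPM table, out of 17901 genes in that table, and all 47 passed the expression filter. At 24 hours after seeding, cells received 25 pmol of siRNA by lipid transfection, either the non-targeting pool (siCtrl, n = 3) or the pool directed at MED12 (siMED12, n = 3). The medium was replaced 6 hours later and the cells were harvested 3 days after transfection. No compound was added to either group, and all libraries came from 1 cell line, which limits them as a model of prostate cancer.

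Pol I transcribes the precursor of the large ribosomal RNAs in the nucleolus, Pol II transcribes messenger RNAs and most small nuclear RNAs, and Pol III transcribes transfer RNAs, 5S ribosomal RNA and other short RNAs. Each enzyme has 2 large catalytic subunits and a set of small ones. Some of the small subunits are common to all 3 enzymes, and POLR1C and POLR1D are common to Pol I and Pol III. Pol I is brought to the ribosomal DNA promoter by UBTF, by the selectivity factor built from TBP and TAF1A to TAF1D, and by RRN3. Pol III is brought to its genes by GTF3A and the GTF3C complex, which bind DNA, and by the TBP complex with BDP1 and BRF1 or BRF2. Ribosome production in growing and cancer cells depends on Pol I and Pol III, and MYC is a known activator of both. The libraries were made from poly(A) RNA, so that they measured the messenger RNAs of the machinery and not its ribosomal and transfer RNA products.

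Library totals ran from 16136699 to 17012788 gene counts. MED12 mRNA was 67.8, 77.7 and 72.6 CPM with siCtrl against 23.9, 14.97 and 30.1 CPM with siMED12 (CPM, the counts scaled to one common library size by TMM). It was lower in every siMED12 library (edgeR, unblocked log2 fold change -1.66 ± 0.23 SE with adjusted p 0.0314, blocked -1.68 ± 0.10 SE with adjusted p 1.52e-16, where the block is the replicate number and the ± value the standard error). Without the block, its adjusted p was between 0.0818 and 0.186 after removal of replicate 1 or 2 of either group. The share of counts from mitochondrially encoded genes was between 4.43% and 10.1%, and the same-numbered libraries of both groups had similar shares. The luminal markers KRT8, KRT18, HOXB13 and KLK3 were all detected, whereas the markers of leukocytes (PTPRC), endothelium (PECAM1) and basal epithelium (KRT5) and COL1A2 of fibroblasts had between 0 and 3 counts in every library. COL1A1 was the 1 marker of another cell type that passed the filter (log2 fold change 0.02, adjusted p 0.985). With the replicate number as a block, KLK3 (-1.30, adjusted p 5.12e-15), KRT8 (-0.42, adjusted p 6.65e-12) and KRT18 (-0.34, adjusted p 2.46e-09) were lower and HOXB13 (0.39, adjusted p 4.1e-10) was higher on the log2 scale, and their part in the results was not tested.

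The first question was which genes of the machinery differed between siMED12 and siCtrl. In the unblocked fit no member was past the threshold (adjusted p 0.05) in either direction, where 0.413% of all tested genes were lower and 0.151% higher. At an unadjusted p below 0.05, 8 members were lower, against 7.93% of all genes, and none was higher, against 7.65%. The lowest adjusted p was that of POLR1G (0.0537). With an unblocked Wald test (DESeq2), 4 members were lower (POLR1G, POLR2F, POLR3K and GTF3A), against 2.75% of all genes, and none higher, against 1.85%. Same-numbered libraries of both groups shared deviations from their group means. In the blocked fit 19 members were lower (40.4%) and 2 higher (4.26%), against 16.2% and 17.1% of all tested genes. Of all members, 33 were below 0 in each of the 3 same-numbered pairs and 4 above 0, against 27% and 30.6% of all genes. All 19 were lower in each pair, which the blocked fit favours, so that this adds no separate support. In 11 of them every siMED12 library lay below every siCtrl library, and the share among all genes called lower was not counted. Over all 47 members the groups did not overlap in 12 that were lower and 2 that were higher, against 10.9% and 11.2% of all genes. Because these libraries hold bulk RNA, fewer cells with a transcript and less of the transcript per cell cannot be told apart, and values are shares of the poly(A) RNA and not amounts per cell.

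**Figure D1:**
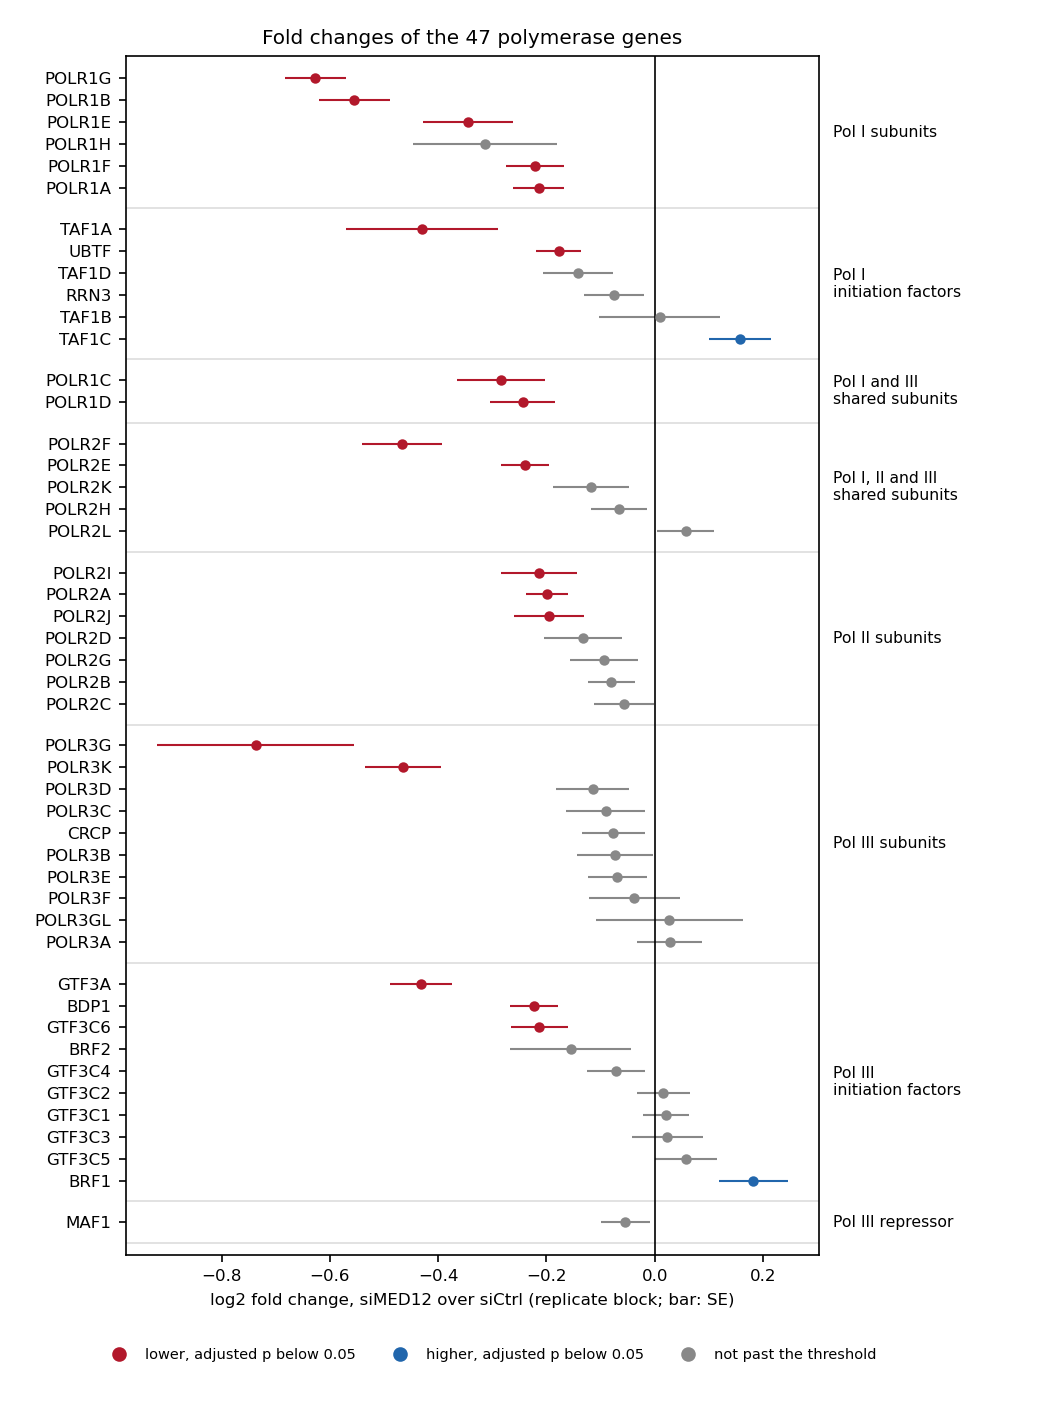
Log2 fold change of siMED12 over siCtrl for the 47 polymerase genes (x axis) with the replicate number as a block, grouped by the enzyme or factor they belong to (y axis); bars give the standard error, red marks genes lower and blue genes higher at an adjusted p below 0.05. The Pol I subunits lie furthest to the left as a group, from -0.63 to -0.21, whereas most Pol III genes lie close to 0, apart from POLR3G, POLR3K, GTF3A, BDP1 and GTF3C6 below it and BRF1 above it.

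The second question was whether the 3 polymerases differed from each other. Of the 12 genes specific to Pol I, 7 were lower and 1 was higher with the block (58.3% lower). Of the 7 genes specific to Pol II, 3 were lower and none was higher (42.9%). Of the 20 genes specific to Pol III, leaving MAF1 aside, 5 were lower and 1 was higher (25.0%), and of the 7 shared subunits 4 were lower and none was higher (57.1%). In this fit 16.2% of all tested genes were lower and 17.1% higher. The share lower was highest for Pol I and lowest for Pol III, although the lists are short and the difference between them was not tested. The lists are also unlike, since those of Pol I and Pol III hold subunits and initiation factors and that of Pol II only subunits. Among subunits alone, 5 of 6 for Pol I, 3 of 7 for Pol II and 2 of 10 for Pol III were lower. Of 32 tested general transcription factors of Pol II, kept apart, 4 were lower and 4 higher. The order of the lists by share did not hold in every fit. Without the pair of replicate 3, 6 of 12 Pol I genes, 1 of 7 Pol II genes, 5 of 20 Pol III genes and 4 of 7 shared subunits were lower. In that fit 14.4% of all tested genes were lower. The median log2 fold change without the block was -0.22 for Pol I, -0.13 for Pol II, -0.07 for Pol III and -0.24 for the shared subunits, beside 0.02 for all tested genes. To 2 decimals the block left these medians as they were. Within pairs of replicate number 1, 2 and 3 the medians were -0.23, -0.24 and -0.18 for Pol I. They were -0.11, -0.20 and -0.14 for Pol II and -0.04, -0.11 and -0.03 for Pol III, and -0.21, -0.23 and -0.12 for the shared subunits. Each of these 12 values was below 0, and those of Pol III were the closest to 0 in every pair.

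**Figure D2:**
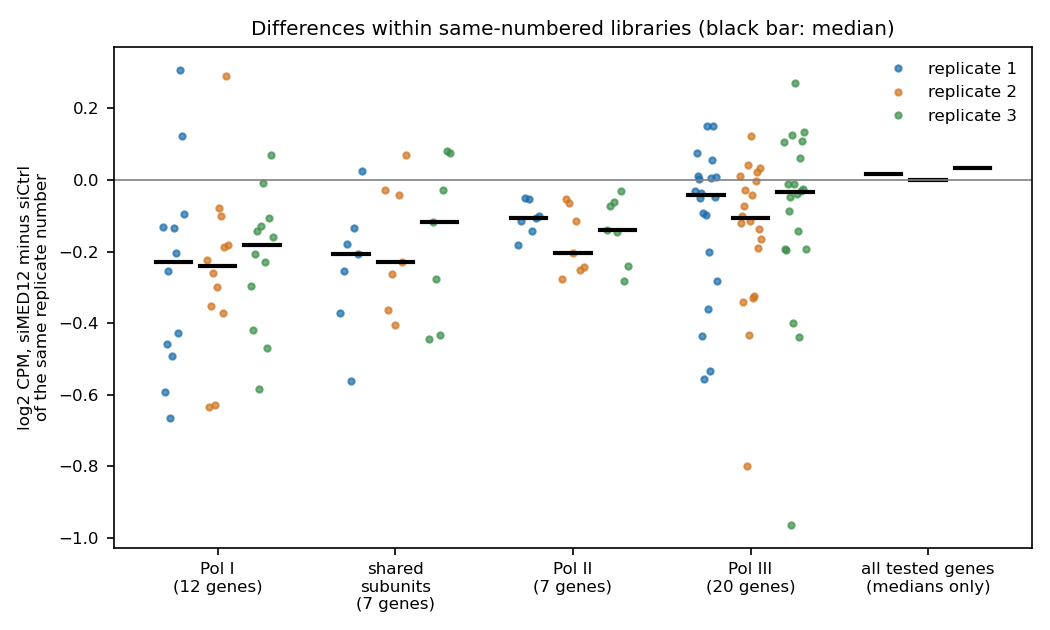
Difference in log2 CPM between siMED12 and siCtrl of the same replicate number (y axis) for each gene of the 4 lists (x axis; points, coloured by replicate number), with the median of each list and of all tested genes as a black bar. The Pol I bars lie between -0.24 and -0.18 and the Pol III bars between -0.11 and -0.03, and all tested genes have medians of at most 0.03.

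Calls with the block differed between scalings. With a joint offset for GC content and transcript length, 10 Pol I genes, 3 Pol II genes, 7 Pol III genes and 4 shared subunits were lower, against 18.6% of all genes, and 1 Pol I gene, 1 Pol III gene and 1 shared subunit were higher, against 13.7%. With library size only, the corresponding numbers were 7, 1, 5 and 4 lower, against 13.5% of all genes, so that the share was lowest for Pol II. Of the 19 members, 15 were called lower in each of the 8 fits with a block, and TAF1A, POLR1C, POLR2I and POLR2J were not. These fits reuse the same libraries, and the share of all tested genes called lower in every fit was not counted.

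Promoter sequences were compared because MYC binds the hexamer CACGTG, and MYC mRNA, given with the Pol I subunits, was lower in each pair. The windows ran from 250 bases before to 50 after each RefSeq start (GRCh38.p14), 37 of the 47 members had an entry, and the hexamer reads the same on both strands. Of the 15 members with an entry that were lower with the block, 2 held it (13.3%), as did 5 of the 20 not past the threshold (25.0%) and none of the 2 that were higher. Among tested genes with an entry the share was 12.3%, close to the share among the lower members. The 150 bases before the start are shown for 4 genes. These are POLR1G of Pol I and GTF3C6 of the Pol III factors, which were lower and held CACGTG, and 2 others picked after their values were seen, the Pol III catalytic subunit POLR3A and the GTF3C complex subunit GTF3C4, in which it lay at the same distance from the start. Each is written 5′ to 3′ along the gene and the hexamer is in capitals.
POLR1G (chr19:45406494-45406643, plus strand): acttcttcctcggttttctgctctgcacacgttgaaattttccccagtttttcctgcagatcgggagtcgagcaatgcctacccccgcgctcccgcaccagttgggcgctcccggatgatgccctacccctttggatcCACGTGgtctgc
GTF3C6 (chr6:110958556-110958705, plus strand): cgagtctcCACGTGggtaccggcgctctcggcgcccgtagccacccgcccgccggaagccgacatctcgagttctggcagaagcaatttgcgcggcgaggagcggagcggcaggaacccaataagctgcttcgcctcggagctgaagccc
POLR3A (chr10:78029516-78029665, minus strand): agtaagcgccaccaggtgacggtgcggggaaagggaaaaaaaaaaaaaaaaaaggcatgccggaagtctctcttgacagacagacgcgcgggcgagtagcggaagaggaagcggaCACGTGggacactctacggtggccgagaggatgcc
GTF3C4 (chr9:132669885-132670034, plus strand): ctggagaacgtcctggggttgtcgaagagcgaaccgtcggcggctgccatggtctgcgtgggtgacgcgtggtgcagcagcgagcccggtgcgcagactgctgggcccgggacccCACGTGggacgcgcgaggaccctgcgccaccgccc
The hexamer began 12 bases before the start of POLR1G, 142 before that of GTF3C6 and 35 before those of POLR3A and GTF3C4. With the block, the log2 fold changes were -0.63 for POLR1G, -0.21 for GTF3C6, 0.03 for POLR3A (adjusted p 0.7702) and -0.07 for GTF3C4 (adjusted p 0.336). Whether the hexamer had a part in these values was not tested. A match gives the letters only and does not show that a factor was bound.

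Among the Pol I subunits, 5 of 6 were lower with the block, against 16.2% of all genes. POLR1G (ENSG00000117877.11; chromosome 19, 45406644 to 45410737, plus strand, GRCh38), which forms with POLR1E a dimer that helps the enzyme start and elongate, was 84.2, 97.3 and 85.2 CPM with siCtrl against 53.1, 62.9 and 56.8 CPM with siMED12. It fell from a mean of 88.9 ± 7.28 to one of 57.6 ± 4.92 CPM (SD, n = 3), and the groups did not overlap (unblocked log2 fold change -0.63 ± 0.11 SE with adjusted p 0.0537, blocked -0.63 ± 0.06 SE with adjusted p 1.1e-11). Its changes of -36.96%, -35.4% and -33.3% within pairs were the most even of the 3 largest decreases. The exons of POLR1G overlap those of ERCC1 on the opposite strand by 1593 of 3197 bases, and whether counting used the strand was not stated. ERCC1 went the other way, with a log2 fold change of 0.23 (adjusted p 0.00672) with the block.

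POLR1B (ENSG00000125630.16; chromosome 2, 112541915 to 112579818, plus strand) encodes the second largest subunit, which forms the active centre together with POLR1A. It was 67.9, 64.2 and 44.7 CPM with siCtrl against 45.03, 41.3 and 33.4 CPM with siMED12, changes of -33.7%, -35.6% and -25.3% (unblocked log2 fold change -0.56 ± 0.18 SE with adjusted p 0.185, blocked -0.55 ± 0.07 SE with adjusted p 1.16e-08). The groups overlapped, because replicate 3 was the lowest library in both groups and siCtrl replicate 3 lay below siMED12 replicate 1. POLR1A (ENSG00000068654.17; chromosome 2, 86020216 to 86106155, minus strand), the largest subunit, was 172, 167 and 129 CPM with siCtrl against 157, 143 and 105 CPM with siMED12, with the same order of libraries and smaller changes of -8.61%, -14.3% and -18.6% (unblocked log2 fold change -0.21 ± 0.17 SE with adjusted p 0.624, blocked -0.21 ± 0.05 SE with adjusted p 3.52e-04).

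POLR1E (ENSG00000137054.16; chromosome 9, 37485948 to 37503697, plus strand), the partner of POLR1G, was 32.96, 32.1 and 25.7 CPM with siCtrl against 23.9, 25.1 and 22.2 CPM with siMED12, with no overlap between groups (unblocked log2 fold change -0.35 ± 0.14 SE with adjusted p 0.278, blocked -0.34 ± 0.08 SE with adjusted p 0.00111). POLR1F, a subunit of the stalk that contacts RRN3, had a log2 fold change of -0.22 (SE 0.05, adjusted p 0.00129) with the block. POLR1H, whose product cleaves backtracked RNA, changed by -29.2%, -18.9% and -8.59% and did not pass the threshold (-0.31, adjusted p 0.0661), although its 3 siMED12 libraries lay below the siCtrl libraries. In 4 of the 6 Pol I subunits, POLR1A, POLR1B, POLR1E and POLR1F, replicate 3 was the lowest library in siCtrl and in siMED12. The same held for 6 of the 10 Pol III subunits, 3 of the 7 Pol II subunits and 20 of all 47 members. The share of all tested genes with this order of libraries was not counted, so the order is not read as a trait of the members. MYC mRNA was 217, 51.7 and 24.3 CPM with siCtrl against 92.5, 21.3 and 13.02 CPM with siMED12 and was lowest in replicate 3 of both groups. MYC changed by -57.4%, -58.8% and -46.3% within pairs (unblocked log2 fold change -1.21 ± 0.89 SE with adjusted p 0.586, blocked -1.18 ± 0.07 SE with adjusted p 3.91e-17), and its part in the values of the polymerase genes was not tested.

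Of the 6 Pol I initiation factors, UBTF and TAF1A were lower with the block, TAF1C was higher and the other 3 did not pass. Over all genes 16.2% were lower and 17.1% higher. UBTF (ENSG00000108312.16; chromosome 17, 44205033 to 44221626, minus strand), an architectural protein that coats active ribosomal DNA, was 242, 259 and 280.03 CPM with siCtrl against 210.2, 241 and 239 CPM with siMED12. The groups did not overlap and the decrease was small (unblocked log2 fold change -0.18 ± 0.10 SE with adjusted p 0.436, blocked -0.18 ± 0.04 SE with adjusted p 8.12e-04). TAF1A (ENSG00000143498.18; chromosome 1, 222557902 to 222589933, minus strand), a subunit of the selectivity factor, was 16.2, 6.39 and 8.11 CPM with siCtrl against 12.1, 4.91 and 5.82 CPM with siMED12. Replicate 1 was the highest library in both groups by a wide margin, so that the groups overlapped, and within pairs TAF1A changed by -25.8%, -23.1% and -28.2% (unblocked log2 fold change -0.43 ± 0.43 SE with adjusted p 0.711, blocked -0.43 ± 0.14 SE with adjusted p 0.0157). Its call with the block was lost without the pair of replicate 1 (adjusted p 0.1097) and without that of replicate 3 (0.0558).

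TAF1C, another subunit of the selectivity factor, was higher with the block at 0.16 (adjusted p 0.0294), by 8.97%, 22.5% and 4.898% in the pairs, with overlapping groups. Its call was lost without the pair of replicate 1 (adjusted p 0.117) or replicate 2 (0.493). The values of TAF1B were 0.01 (adjusted p 0.963) and those of TAF1D -0.14 (adjusted p 0.0915). The exons of TAF1D overlap 946 bases of small nucleolar RNA and other small RNA genes that lie inside it. RRN3 (ENSG00000085721.13; chromosome 16, 15060033 to 15094311, minus strand), which makes Pol I competent for initiation and is controlled by growth signals through phosphorylation, was 79.8, 84.8 and 66.4 CPM with siCtrl against 72.8, 80.2 and 65.97 CPM with siMED12. It changed by -8.86%, -5.36% and -0.614% and did not pass the threshold (-0.08, adjusted p 0.321). The transcripts of RRN3 share 25.3% of their 50-base stretches with other genes, mainly its pseudogenes, which limits the precision of its counts.

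Of the 2 subunits that Pol I and Pol III share, both were lower with the block, against 16.2% of all genes. POLR1D (ENSG00000186184.20; chromosome 13, 27620742 to 27744237, plus strand) was 62.2, 73.2 and 73.5 CPM with siCtrl against 52.2, 56.8 and 67.8 CPM with siMED12, lower in each pair although the groups overlapped (unblocked log2 fold change -0.24 ± 0.13 SE with adjusted p 0.4195, blocked -0.24 ± 0.06 SE with adjusted p 0.00144). POLR1C (ENSG00000171453.20; chromosome 6, 43509702 to 43562419, plus strand), its partner in the platform on which both enzymes assemble, was 32.3, 32.3 and 44.1 CPM with siCtrl against 24.9, 31.6 and 32.4 CPM with siMED12 (unblocked log2 fold change -0.29 ± 0.17 SE with adjusted p 0.467, blocked -0.28 ± 0.08 SE with adjusted p 0.005501). The change of POLR1C was uneven, -22.8%, -1.95% and -26.6% in the pairs, and its adjusted p with the block was 0.0555 without the pair of replicate 1 and 0.136 without that of replicate 3. Its exons overlap XPO5, YIPF3 and other genes on the opposite strand by 1009 of 5505 bases, where with the block XPO5 was lower (-0.22, adjusted p 6.25e-04) and YIPF3 higher (0.20, adjusted p 0.00377).

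Among the 5 subunits common to all 3 polymerases, POLR2F and POLR2E were lower with the block, against 16.2% of all genes. POLR2F (ENSG00000100142.16; chromosome 22, 37952607 to 38041915, plus strand) was 42.9, 43.4 and 42.6 CPM with siCtrl against 29.05, 32.7 and 31.5 CPM with siMED12, a fall from a mean of 42.97 ± 0.397 to one of 31.1 ± 1.89 CPM (SD, n = 3). The siCtrl libraries lay close together and all siMED12 libraries lay below them (unblocked log2 fold change -0.47 ± 0.10 SE with adjusted p 0.0919, blocked -0.47 ± 0.07 SE with adjusted p 2.72e-06). POLR2E (ENSG00000099817.12; chromosome 19, 1086574 to 1095380, minus strand), which contacts the DNA ahead of the active site, was 183, 201 and 184 CPM with siCtrl against 162, 168 and 152 CPM with siMED12, also without overlap (unblocked log2 fold change -0.24 ± 0.09 SE with adjusted p 0.235, blocked -0.24 ± 0.04 SE with adjusted p 3.34e-05). Values for the other members with the block were -0.12 (adjusted p 0.214) for POLR2K, -0.07 (adjusted p 0.357) for POLR2H and 0.06 (adjusted p 0.441) for POLR2L. POLR2L was the 1 shared subunit above 0 in all 3 pairs, by 1.796%, 4.94% and 5.45%.

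All 7 Pol II subunits had log2 fold changes below 0, in each of the 3 pairs, against 27% of all tested genes that were below 0 in every pair. The changes were small and 3 passed the threshold with the block, against 16.2% of all genes that were lower. POLR2A (ENSG00000181222.19; chromosome 17, 7484366 to 7514616, plus strand), the largest subunit, carries the C-terminal repeat domain that is phosphorylated as transcription starts. It was 376, 454 and 406 CPM with siCtrl against 332, 374 and 369 CPM with siMED12, with no overlap between the groups and changes of -11.9%, -17.4% and -9.15% (unblocked log2 fold change -0.20 ± 0.10 SE with adjusted p 0.387, blocked -0.20 ± 0.04 SE with adjusted p 9.36e-05). POLR2I, which acts in transcript fidelity, and POLR2J, an assembly subunit, changed by -7.15%, -16.1% and -17.8% (POLR2I) and -6.73%, -15.6% and -15.4% (POLR2J) in the pairs, with log2 fold changes of -0.21 (adjusted p 0.0161) and -0.19 (adjusted p 0.0172) with the block. Neither passed with library size only (adjusted p 0.0523 and 0.0598) or with the GC and length offset (0.142 and 0.0995). Without the pair of replicate 3 both calls were also lost (0.129 and 0.112), which left POLR2A as the 1 Pol II subunit past the threshold. POLR2I shares 878 of its 1137 exonic bases with genes on the opposite strand, and 33.3% of the 50-base stretches of POLR2J also occur in other genes, mainly its copies POLR2J2 and POLR2J3. The second largest subunit POLR2B, the assembly subunit POLR2C and the stalk subunits POLR2D and POLR2G had values of -0.08 (adjusted p 0.163), -0.06 (adjusted p 0.464), -0.13 (adjusted p 0.161) and -0.09 (adjusted p 0.268).

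**Figure D3:**
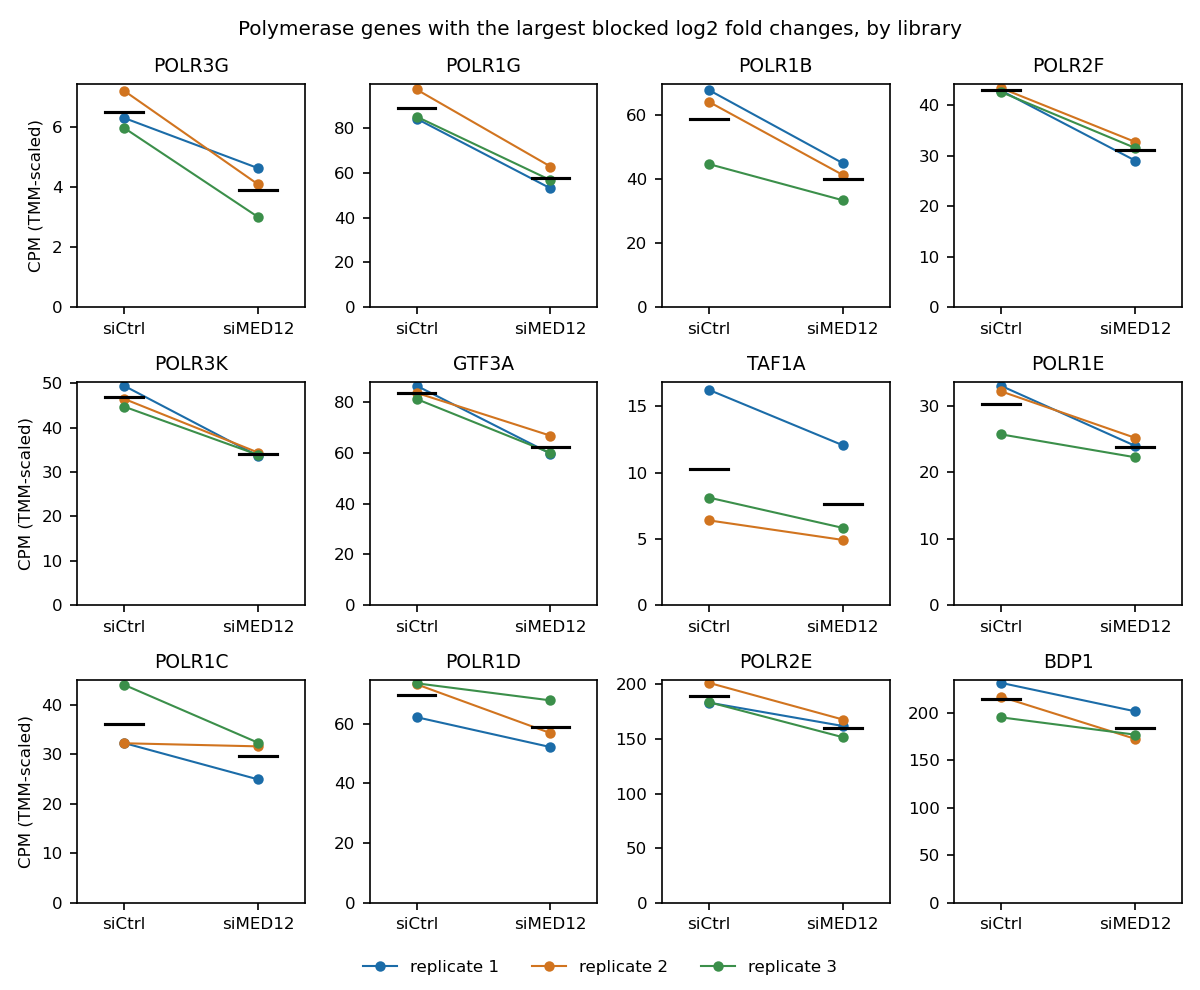
CPM per library (y axis, starting at 0) in siCtrl and siMED12 (x axis) for the 12 polymerase genes with the largest log2 fold changes past the threshold with the block; lines join libraries of the same replicate number and black bars give group means. Every line falls, and in TAF1A the libraries of replicate 1 lie above the others in both groups.

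Among the 10 Pol III subunits, 2 were lower with the block and the other 8 did not pass, a share close to the 16.2% of all genes. POLR3G (ENSG00000113356.13; chromosome 5, 90471748 to 90514557, plus strand) had the largest change of all 47 members. It encodes a subunit of the trimer that opens promoter DNA, and it is known to be high in stem and tumour cells, whereas its paralog POLR3GL is found in most tissues. POLR3G was 6.31, 7.21 and 5.97 CPM with siCtrl against 4.63, 4.09 and 3.005 CPM with siMED12, between 48 and 114 counts, with no overlap (unblocked log2 fold change -0.73 ± 0.23 SE with adjusted p 0.184, blocked -0.74 ± 0.18 SE with adjusted p 0.00134). POLR3GL (ENSG00000121851.13; chromosome 1, 145964690 to 145978848, plus strand) was 8.63, 9.49 and 9.63 CPM with siCtrl against 8.08, 9.76 and 10.5 CPM with siMED12, with overlapping groups (unblocked log2 fold change 0.03 ± 0.18 SE with adjusted p 0.964, blocked 0.03 ± 0.14 SE with adjusted p 0.906). The ratio of POLR3G to POLR3GL CPM was 0.731, 0.76 and 0.6202 in siCtrl and 0.574, 0.419 and 0.286 in siMED12. An exact two-sided permutation test over the libraries gave a p of 0.1, the smallest that 3 against 3 allow, and 0.167 after adjustment over 5 ratios of members. The ratios of BRF1 to BRF2 and of POLR1A to POLR3A gave the same p, and those of POLR1A and POLR3A to POLR2A larger ones. The test did not use the replicate numbers as pairs.

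POLR3K (ENSG00000161980.6; chromosome 16, 46407 to 53608, minus strand), the subunit that cleaves RNA and takes part in termination and reinitiation, fell from a mean of 46.9 ± 2.37 to one of 33.95 ± 0.388 CPM (SD, n = 3). It was 49.4, 46.5 and 44.7 CPM with siCtrl against 33.6, 34.4 and 33.9 CPM with siMED12, and the siMED12 libraries lay close together below all siCtrl libraries (unblocked log2 fold change -0.47 ± 0.10 SE with adjusted p 0.0838, blocked -0.47 ± 0.07 SE with adjusted p 1.5e-06). The large catalytic subunits gave no such decrease: POLR3A (ENSG00000148606.15; chromosome 10, 77953148 to 78029522, minus strand) was 66.1, 61.99 and 52.5 CPM with siCtrl against 64.7, 62.5 and 56.6 CPM with siMED12 (unblocked log2 fold change 0.03 ± 0.12 SE with adjusted p 0.952, blocked 0.03 ± 0.06 SE with adjusted p 0.7702), and POLR3B had a value of -0.07 (adjusted p 0.467) with the block. The remaining subunits POLR3C, POLR3D, POLR3E, POLR3F and CRCP had values with the block from -0.11 to -0.04, with adjusted p-values from 0.195 to 0.7802.

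Of the 10 factors that recruit Pol III, 3 were lower with the block, 1 was higher and 6 did not pass, where 16.2% of all genes were lower and 17.1% higher. GTF3A (ENSG00000122034.17; chromosome 13, 27424619 to 27435823, plus strand), a zinc finger protein that binds the 5S ribosomal RNA gene and the 5S RNA itself, was 86.6, 83.7 and 81.3 CPM with siCtrl against 59.8, 66.8 and 60.03 CPM with siMED12. It fell from a mean of 83.9 ± 2.63 to one of 62.2 ± 4.01 CPM (SD, n = 3), and its groups did not overlap (unblocked log2 fold change -0.43 ± 0.09 SE with adjusted p 0.0838, blocked -0.43 ± 0.06 SE with adjusted p 1.07e-07). BDP1 (ENSG00000145734.20; chromosome 5, 71455651 to 71567820, plus strand), the part of the TBP complex that holds it on DNA, was 232, 217 and 195 CPM with siCtrl against 202, 173 and 177 CPM with siMED12, with overlapping groups and changes of -12.9%, -20.4% and -9.33% (unblocked log2 fold change -0.22 ± 0.10 SE with adjusted p 0.344, blocked -0.22 ± 0.04 SE with adjusted p 9.36e-05). BRF1 (ENSG00000185024.18; chromosome 14, 105209286 to 105315589, minus strand), which directs that complex to transfer RNA genes, was higher in each pair. It was 50.6, 50.7 and 46.4 CPM with siCtrl against 56.3, 55.3 and 56.02 CPM with siMED12, without overlap (unblocked log2 fold change 0.18 ± 0.09 SE with adjusted p 0.409, blocked 0.18 ± 0.06 SE with adjusted p 0.0236). Exons of BRF1 overlap those of BTBD6 and PACS2 on the opposite strand by 1052 of 12962 bases, and both of these were higher as well (0.21 and 0.14, adjusted p 0.0109 and 0.0409 with the block). The call of BRF1 was lost whichever pair was left out (adjusted p 0.104, 0.0605 and 0.208 without replicate 1, 2 and 3). BRF2, which serves the U6 type of promoter in place of BRF1, had a value of -0.16 (adjusted p 0.309).

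In the GTF3C complex, which recognises the internal promoters of transfer RNA genes, 1 of 6 subunits was lower with the block, a share close to the 16.2% of all genes. GTF3C6, its smallest subunit, had a log2 fold change of -0.21 (SE 0.05, adjusted p 0.00131) and changed by -17.8%, -10.8% and -12.4% in the pairs, and 15.98% of its 50-base stretches are shared with its pseudogenes. The other 5, GTF3C1 to GTF3C5, had values between -0.07 and 0.06. MAF1 (ENSG00000179632.10; chromosome 8, 144104461 to 144107611, plus strand), the repressor that binds Pol III when nutrients or growth signals are low, was 155, 159.9 and 156 CPM with siCtrl against 143, 156 and 155 CPM with siMED12. Its groups overlapped and it did not pass the threshold (unblocked log2 fold change -0.05 ± 0.08 SE with adjusted p 0.826, blocked -0.05 ± 0.05 SE with adjusted p 0.384).

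Levels of the subunits were compared per length, as CPM divided by the kilobases of merged exons (RPKM). In siCtrl the median over subunits was 30.1 RPKM for Pol II, 10.01 RPKM for Pol I and 6.64 RPKM for Pol III. Among the largest subunits the level was 49.3 ± 4.66 RPKM (SD, n = 3) for POLR2A, 7.92 ± 1.18 for POLR1A and 3.81 ± 0.4398 for POLR3A. These 3 levels did not overlap in any library. With the length of the canonical transcript the siCtrl means kept this order, at 65.3, 12.5 and 9.11 RPKM, but in siMED12 replicate 3 POLR1A (8.43 RPKM) lay just below POLR3A (8.56 RPKM). POLR3G had the lowest level of all members at 1.61 ± 0.159 RPKM, below POLR3GL at 5.11 ± 0.3001 RPKM, and it fell to 0.972 ± 0.206 RPKM in siMED12. GTF3C6 had the highest level, 106 ± 10.6 RPKM. Within Pol I the siCtrl levels ran from 3.04 ± 0.469 RPKM for POLR1H to 27.8 ± 2.28 RPKM for POLR1G. This order depended on the length used, since with the canonical transcript POLR1H was at 13.1 RPKM and POLR1B was the lowest at 7.83 RPKM. Merged exons include rare and unspliced transcripts, so that genes such as POLR1D, with 12363 merged bases against 693 in its canonical transcript, may be understated.

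**Figure D4:**
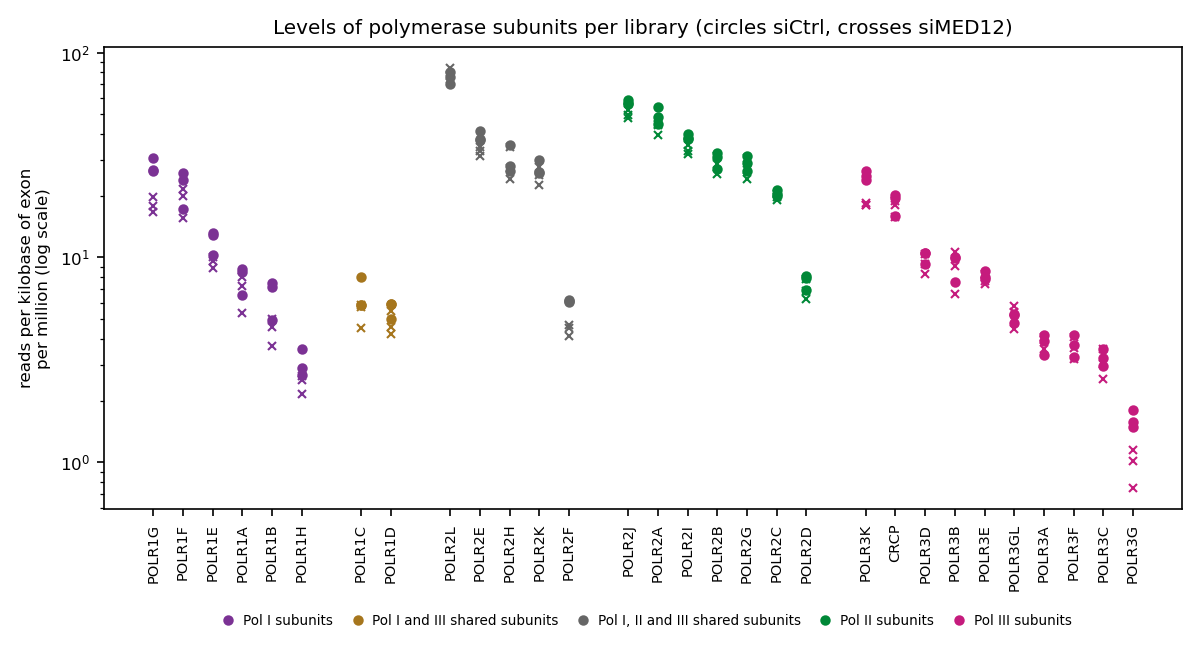
Level of each polymerase subunit in RPKM, CPM per kilobase of merged exons (y axis, log scale) for the siCtrl (circles) and siMED12 (crosses) libraries, ordered within each enzyme. In every library the Pol II subunits other than POLR2D lie above the Pol III subunits other than POLR3K and CRCP.

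Related genes outside the list were counted in the same fit. None of them was past the threshold in the unblocked edgeR fit, whereas the unblocked Wald test of DESeq2 called TAF4B (adjusted p 6.79e-05), TTF2 (0.0179), RUVBL2 (0.0203) and NELFE (0.0338) lower. Counts with the block were read against the same 16.2% lower and 17.1% higher. Of the 32 tested general transcription factors of Pol II, which include TBP, the TAF proteins and the TFIIH subunits, 4 were higher and 4 lower with the block, with a median log2 fold change of 0.01. Those lower were TAF4B (-1.67, adjusted p 1.36e-09), TAF3 (-0.48, adjusted p 8.35e-05), CCNH (-0.26, adjusted p 0.00217) and TAF9 (-0.17, adjusted p 0.0257). TAF7, TAF9B, TAF8 and GTF2A1 were higher, with log2 fold changes of 0.31, 0.31, 0.27 and 0.20. TAF4B, a form of TAF4 found in certain cell types, had the largest change and was 11.1, 10.3 and 9.69 CPM with siCtrl against 5.17, 2.397 and 2.44 CPM with siMED12, lower in every siMED12 library.

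Of the 5 subunits of the SNAPC complex, which serves the promoters of small nuclear RNA genes for both Pol II and Pol III, 3 were lower with the block and none higher. These were SNAPC1 (-0.47, adjusted p 0.0197), SNAPC5 (-0.37, adjusted p 2.1e-04) and SNAPC4 (-0.31, adjusted p 1.08e-04). Of 10 assembly and import factors, RUVBL1 (-0.44, adjusted p 2.03e-09) and RUVBL2 (-0.34, adjusted p 1.19e-07), the ATPases of the chaperone complex that assembles polymerases, were lower and none was higher. Of 18 elongation and termination factors, 4 were lower (TTF2, NELFE, ELL2 and NELFB) and 3 higher (RTF1, PAF1 and SUPT5H). Among those past the threshold, log2 fold changes with the block lay between -0.47 for TTF2 and 0.17 for RTF1. Over all 18 factors the highest value was 0.23. Of the 4 genes for mitochondrial transcription, the polymerase POLRMT (-0.33, adjusted p 4.62e-05), TFB2M (-0.37, adjusted p 4.69e-05) and TFB1M (-0.36, adjusted p 0.0409) were lower. POLR2M and the POLR2J copies POLR2J2 and POLR2J3 did not pass the threshold.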

How the data were processed

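Strand-specific libraries were made from captured poly(A) RNA. Per the labels, the build was GRCh38.p13, and the study's methods name Rsubread with a Gencode annotation for alignment and counting. The deposited counts, made by the authors, are raw reads per gene for 62703 genes. The deposited log2 CPM values (decimal commas) cover 17901 genes and were recomputed from the counts (TMM, prior count 2) within 4.96e-09. Genes were tested with edgeR 4.0.16 in R 4.3.3 (expression filter, TMM, quasi-likelihood F-test, two-sided, Benjamini-Hochberg over 17901 genes, threshold 0.05), with the treatment as the only term. The study's methods name no block for its tests, although a figure legend mentions a batch-corrected heatmap of these cells, and which batch that was is not given in the sources used here. A standard error is the absolute log2 fold change over the square root of F. Both groups carry replicate numbers 1 to 3, and deviations from group means correlated at 0.532, 0.373 and 0.643 between same-numbered libraries and from -0.460 to -0.0233 otherwise, so blocked values are given too. No 2 libraries of a group were duplicates (chi-square per degree of freedom of at least 11.2). The study gives at least 3 biological replicates as its general rule, with exceptions to be noted. The labels do not say whether the replicates of these libraries were separate cultures, so that p-values measure the spread between these libraries only.

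The members, the gene lists and the genes shown per library were chosen with earlier results of these data known. Every member is named, with values per library for the 12 largest blocked changes past the threshold and for POLR1A, POLR2A, POLR3A, POLR3G, POLR3GL, RRN3, UBTF, BRF1, BDP1 and MAF1. Lists of general transcription factors, SNAPC, assembly, elongation and mitochondrial factors, further subunits and markers were written from general knowledge. Coordinates and exons came from Gencode 44 on the same assembly, where 99.9% of counted genes had an entry. Promoters came from RefSeq (GRCh38.p14). Alternatives were DESeq2 1.42.0 (size factors, Wald test), limma-trend 3.58.1, library size only, other filters, left-out libraries and a loess offset (span 0.5) for GC content and transcript length of 17881 genes. The edgeR fits were also run on simulated counts, with changes larger than that of any member. That run does not bear on calls of changes as small as those of the members. Some genes of the marker and further-subunit lists are not reported here.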

Additional observations from a re-analysis of the deposited data

How the results depend on the processing

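Of 163 alternative counts, medians and levels, 91 stayed close to the reported value and 72 moved. Of 980 alternative values for single genes, 753 kept direction and side of the threshold, 176 passed it only under the alternative, 4 (all for MED12) no longer passed and 47 turned direction. The replicate block changed the number of genes higher and lower from 27 and 74 to 3058 and 2908, and the number of polymerase genes to 2 and 19. With the block, all genes numbered 2960 and 3069 with DESeq2 size factors, 3807 and 2413 with library size only, 3077 and 2907 with limma-trend and 2446 and 3332 with the GC and length offset, and polymerase genes 2 and 19, 2 and 17, 2 and 19, and 3 and 24. Leaving out 1 replicate pair gave 2070 to 2375 and 2578 to 2654 genes, and 0 to 1 and 16 to 19 polymerase genes. Without the block, the Wald test gave 331 and 493 genes, no filter 186 and 290, a mean of at least 1 CPM 118 lower and library size only 49 lower. Polymerase genes lower numbered 4 with the Wald test and 1 (POLR1G) with either other filter. Leaving out 1 library gave 0 to 8 higher and 0 to 37 lower genes, and 0 polymerase genes.

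Median log2 fold changes over all fits that left out libraries ran from -0.35 to -0.14 for Pol I, -0.19 to -0.11 for Pol II, -0.15 to -0.019 for Pol III and -0.28 to -0.15 for the shared subunits. With library size only they were -0.17 for Pol I (-0.18 with the block) and -0.028 for Pol III (-0.030), and with the GC and length offset -0.31 and -0.12. Library size only moved the median of all genes from 0.02 to 0.06. With canonical lengths, the median levels, an alternative chosen after seeing the data, were 14.7 RPKM for Pol I, 57.2 RPKM for Pol II and 10.5 RPKM for Pol III. None of the genes that turned direction was past the threshold without the block. With the GC and length offset the values became -0.025 for TAF1B, -0.068 for POLR3A, -0.029 for GTF3C1, -0.062 for GTF3C3 and 0.021 for MAF1. TAF1B became -0.0052 with at least 1 CPM, and POLR3F 0.0019 with library size only (0.0032 with the block). With libraries left out, ranges crossed 0 for TAF1A (-0.95 to 0.044), TAF1B (-0.17 to 0.12), TAF1C (-0.012 to 0.37), TAF1D (-0.37 to 0.024), POLR2H (-0.22 to 0.074), POLR2L (-0.017 to 0.10), POLR3A (-0.066 to 0.081), POLR3B (-0.24 to 0.10), POLR3C (-0.23 to 0.028), POLR3F (-0.15 to 0.034), POLR3GL (-0.050 to 0.12), GTF3C1 (-0.036 to 0.069), GTF3C2 (-0.065 to 0.12), GTF3C3 (-0.061 to 0.10), GTF3C4 (-0.29 to 0.092) and MYC (-2.52 to 0.14). The causes were not tested. Depth limits POLR3G, with 48 to 114 counts, more than the other members.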
